A study of Mus musculus with 768 samples.

Results

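Among NK cells sorted from MTAP1A tumors by a gate that left out cells with surface CD3, 76 of 726 kept wells carried transcripts of 2 or 3 of the CD3 chains Cd3d, Cd3e and Cd3g. These wells, the members of the group described here, numbered 31 among the 360 kept wells of the WT plate and 45 among the others, on the PD-1-/- plate. A well was kept if it had 1000 to 3500 genes above 0 RPKM (reads scaled by gene length and by the reads mapped in the well), counting the 14761 genes seen in at least 3 of all 768 wells. A member had at least 2 of the 3 chains above 0 RPKM. The members were thus chosen on Cd3d, Cd3e and Cd3g, and the values of these genes are a description and support nothing. The members were compared, within each plate, with the 578 kept wells that had none of the chains. The 72 kept wells with exactly 1 chain, 34 on the WT and 38 on the PD-1-/- plate, were left out of that comparison and are described on their own.

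Each plate held single cells sorted as NK1.1+ and without surface CD3, from the pooled tumors of 3 mice. MTAP1A is a clone of a methylcholanthrene-induced fibrosarcoma that lacks Tap1 and so loads few peptides on MHC class I. The hosts were C57BL/6 mice, males 8 to 12 weeks old, either WT or PD-1-/-. The PD-1-/- mice lack PD-1 in all cells from birth, by a deletion that per the study takes 2 exons of Pdcd1 and not the whole gene. Genotype, pool and plate cannot be told apart, the mouse that a well came from is not given, and wells of 1 pool are not replicates. For this reason no test was made, shares of wells carry exact (Clopper-Pearson) 95% intervals for counting error only, the limit given for a gene seen in 0 wells is 3 wells of the group, and fold differences are log2 ratios of mean RPKM with a pseudocount of 1. A gene was called higher or lower where its mean differed 2-fold or more in the same direction on both plates. Libraries were made by SMART-SEQ2, which reads full-length transcripts and has no molecular identifiers. Members had a median of 2224 detected genes on the WT plate and 2394 on the PD-1-/- plate, and no-chain wells 2259 and 2238. Recovered reads had a median of 280448 in WT members and 321630 in WT no-chain wells, and of 325092 and 339817 on the PD-1-/- plate. Fewer than 100000 reads were recovered from 4 WT members and 1 PD-1-/- member, the shallowest of which had 1441.

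The CD3 delta, epsilon and gamma chains carry no antigen specificity of their own. They pair with each other, bind the T cell receptor, bring it to the surface and pass its signal on through ITAM motifs. Mature NK cells signal through other ITAM chains, among them CD3 zeta (Cd247), FcεRIγ (Fcer1g) and DAP12 (Tyrobp), and are separated from T cells in flow cytometry by the lack of surface CD3. Transcripts of CD3 chains are also known from immature and activated NK cells and from other innate lymphoid cells, so that a CD3 transcript is not by itself a mark of a T cell.

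The 3 genes lie side by side on mouse chromosome 9, with Cd3g and Cd3d starting next to each other on opposite strands. The bases before their start sites are shown, from RefSeq on GRCm38.p6 and matched by symbol. Bases inside a gene's annotated span were left out, which kept chr9:44981536-44981768 for Cd3d (plus strand), chr9:44980432-44980681 for Cd3g (minus strand) and chr9:45009664-45009861 for Cd3e (minus strand). Capitals mark the E-box CACCTG, a motif bound by E proteins such as E2A and HEB, searched on both strands (as CAGGTG on the other). The motif was chosen with results of these data known.
Cd3d: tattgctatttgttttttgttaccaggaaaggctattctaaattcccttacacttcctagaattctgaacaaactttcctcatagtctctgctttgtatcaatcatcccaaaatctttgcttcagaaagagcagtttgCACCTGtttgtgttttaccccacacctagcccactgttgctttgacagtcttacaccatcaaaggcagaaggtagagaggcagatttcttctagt
Cd3g: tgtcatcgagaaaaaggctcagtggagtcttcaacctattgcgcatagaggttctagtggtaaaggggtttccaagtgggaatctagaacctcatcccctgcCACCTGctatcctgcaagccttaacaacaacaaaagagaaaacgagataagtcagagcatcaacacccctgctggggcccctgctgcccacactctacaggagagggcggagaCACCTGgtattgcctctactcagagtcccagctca
Cd3e: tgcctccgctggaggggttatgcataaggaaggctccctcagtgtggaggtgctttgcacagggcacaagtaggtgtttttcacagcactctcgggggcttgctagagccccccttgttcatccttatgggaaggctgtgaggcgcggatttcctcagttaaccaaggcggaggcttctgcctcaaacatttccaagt
The motif stood at 1 place before Cd3d and at 2 before Cd3g, the nearer with its first base 35 bases before the start of Cd3g. Those letters were not in the Cd3e window. Over all 32851 promoter windows of 250 bases, 17.2% held the motif on either strand, and a match is a description of the sequence only.

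All 3 chains were found in 62 of the 76 members, 26 on the WT plate and 36 on the PD-1-/- plate. Of the 14 members with 2 chains, 10 lacked Cd3e, 3 of them on the WT plate with Cd3d and Cd3g and 7 on the PD-1-/- plate with the same pair. The chains were far above the level of single reads in most members. Among WT members with 3 chains, Cd3d had 1 to 850 recovered reads with a median of 280, Cd3e 1 to 577 and Cd3g 1 to 1085. Among PD-1-/- members with 3 chains the medians were 404.5 reads for Cd3d, 351.5 for Cd3e and 418.5 for Cd3g, and the lowest well had 7 reads of any chain. In RPKM, the median of Cd3d where present was 699 in WT and 795 in PD-1-/- members, that of Cd3e 557 and 774, and that of Cd3g 927 and 1382. The ranges of the 2 plates overlapped for each chain.

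Just inside the rule, the members with 2 chains had a summed chain signal of 3 to 413 reads on the WT plate and 2 to 1375 reads (median 531) on the PD-1-/- plate. Just outside it, the 34 WT wells with 1 chain had 1 to 390 reads (median 12.5) and the 38 PD-1-/- wells 1 to 421 reads (median 3). Fewer than 10 reads were found in 14 WT and 24 PD-1-/- wells with 1 chain, and 40 or more in 14 and 11 of them. Of the WT wells with 1 chain, 21 had Cd3d, 13 had Cd3g and none had Cd3e alone. On the PD-1-/- plate 18 had Cd3d, 14 had Cd3g and 6 had Cd3e, the last with at most 6 reads.

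**Figure D1:**
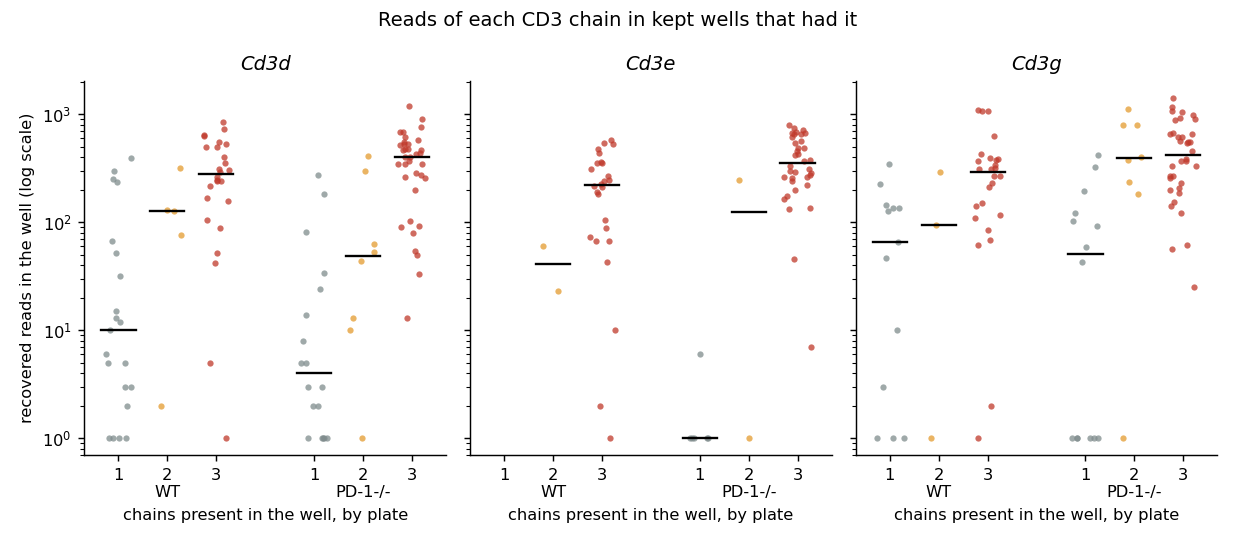
Recovered reads of Cd3d, Cd3e and Cd3g (log scale) in each kept well that had the chain, by plate and by the number of chains in the well, with 1 point per well and a line at the median. Of the wells with 3 chains, 24 of 26 WT and 36 of 36 PD-1-/- wells have 10 or more Cd3d reads, whereas wells with 1 chain spread from 1 read to 421.

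Members made up 8.61% of the kept WT wells (5.93 to 12) and 12.3% of the kept PD-1-/- wells (9.11 to 16.1), and these intervals overlapped. The members were spread unevenly over the WT plate. Rows A and B of that plate held 13 of the 31 members among 38 kept wells, 34.2% (19.6 to 51.4), and the other rows 18, or 5.59% of their wells (3.35 to 8.69). Rows A to H held 23 WT members and rows I to P 8, and 7 of the 16 rows held none. On the PD-1-/- plate rows A and B held 6 members among 45 kept wells, 13.3% (5.05 to 26.8), the other rows 39, or 12.1% of their wells (8.78 to 16.2), and 2 rows held none. For some genes the values of WT members are therefore also given by row block. A further 2 WT and 6 PD-1-/- wells carried at least 2 chains but were not kept, all of them with more than 3500 genes, out of 16 and 14 such wells. No caller of doublets was run on the sorted wells, and whether a well held more than 1 cell was not tested.

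**Figure D2:**
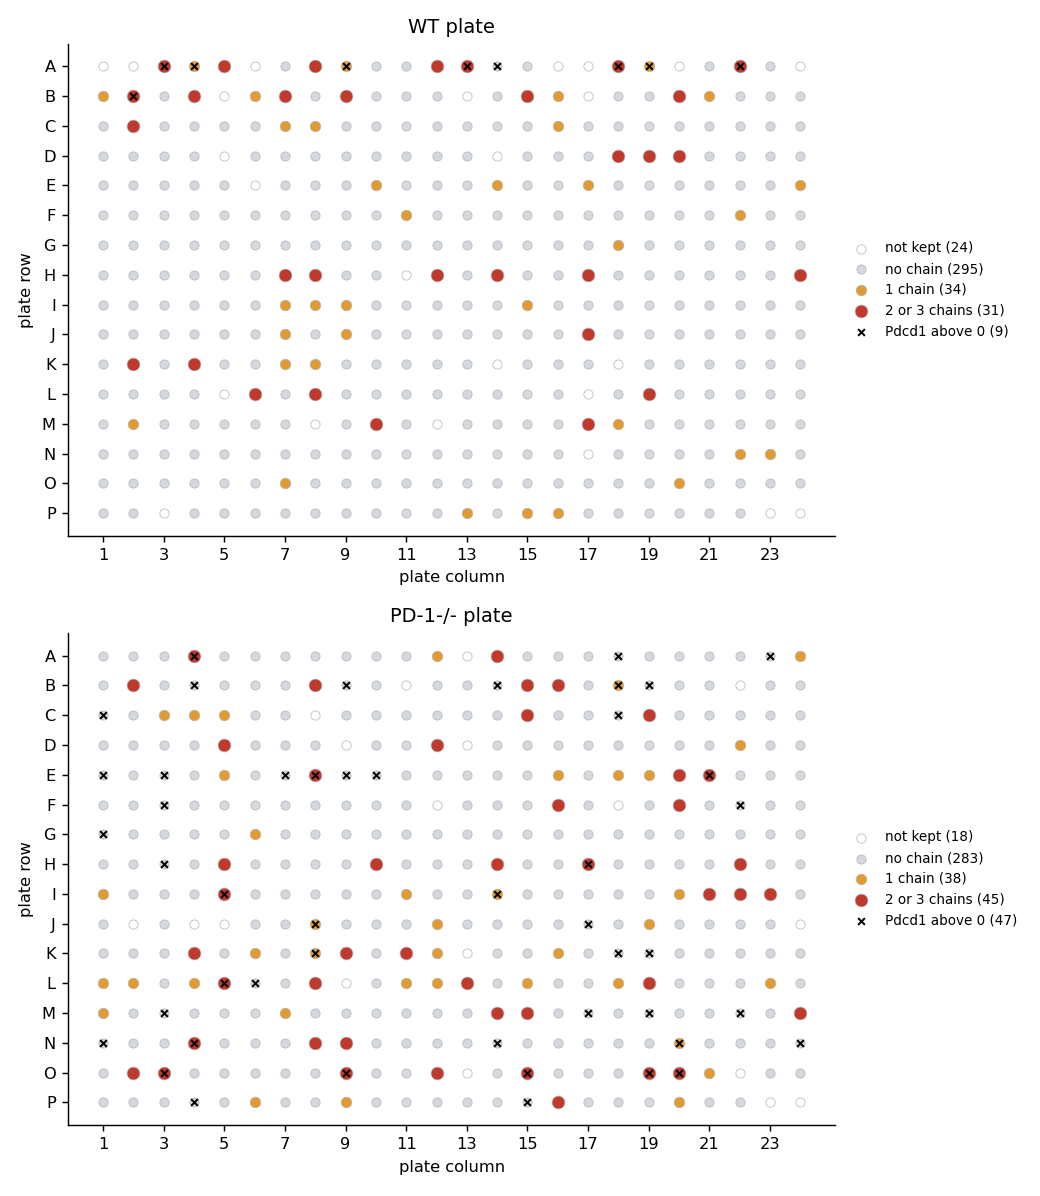
Position of each well on the 2 plates (rows A to P, columns 1 to 24), colored by the number of CD3 chains, with wells that were not kept in white and a cross on kept wells with Pdcd1 above 0 RPKM. On the WT plate, 13 of 31 members and all 9 wells with Pdcd1 lie in rows A and B, while on the PD-1-/- plate members lie in 14 of 16 rows.

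Across all genes, 6171 entries passed the filter, for which the share of wells with the gene, averaged over members and no-chain wells, had to be at least 10% on both plates. Of these, 79 (1.28%) were called higher and 1.72% lower in members on both plates. Taking each plate by itself, and so with these calls included, 7.37% were 2-fold or more higher and 11.1% lower in WT members, and 4.26% higher and 7.91% lower in PD-1-/- members, so that most differences of this size on 1 plate were not seen on the other. The log2 ratios of the plates had a Pearson correlation of 0.17 across genes, given as a description.

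**Figure D3:**
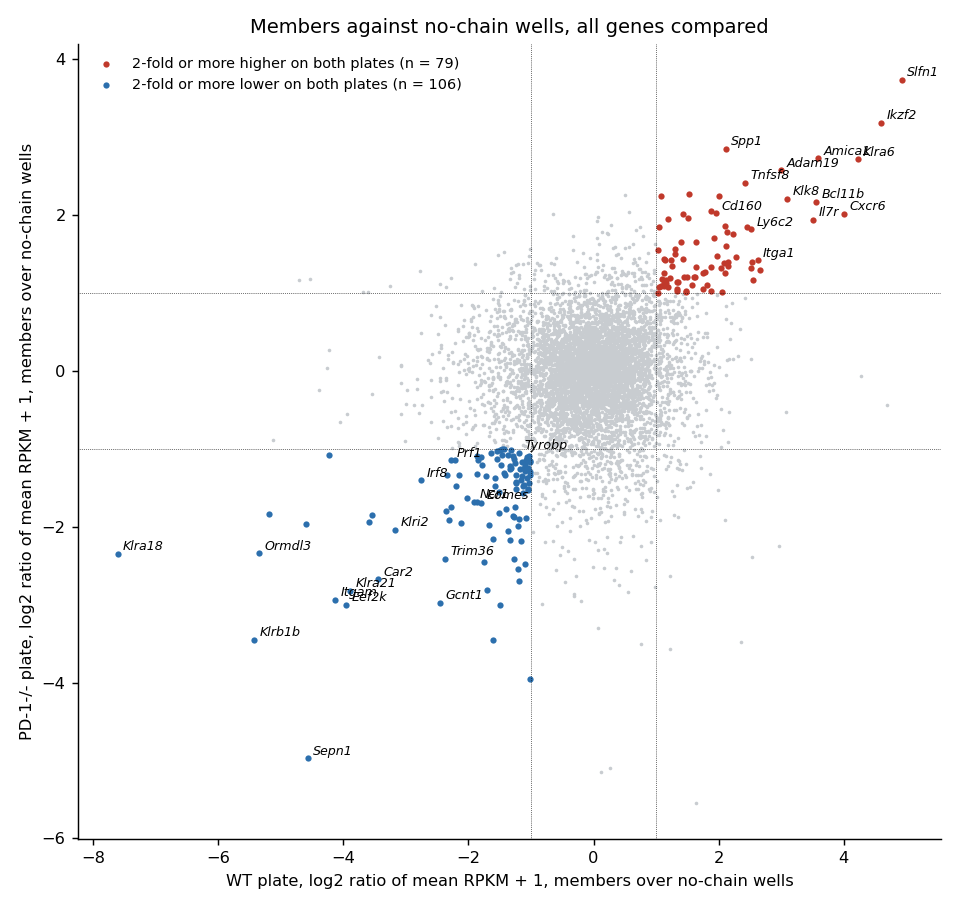
Log2 ratio of mean RPKM + 1, members over wells with no CD3 chain, on the WT plate (x axis) and the PD-1-/- plate (y axis), with 1 point for each of 6171 gene entries and dotted lines at 2-fold. The 79 entries called higher are red and those called lower blue, and most entries lie around 0 on both axes.

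Some genes of the T lineage other than the 3 chains were found in some members and in few no-chain wells. Of 7 further T-like markers (Cd4, Cd5, Cd6, Cd8a, Cd8b1, Bcl11b and Themis), at least 1 was found in 18 of 31 WT members, 58.1% (39.1 to 75.5), and in 17 of 45 PD-1-/- members, 37.8% (23.8 to 53.5). In no-chain wells these shares were 5.08% (2.87 to 8.25) and 5.30% (3.00 to 8.59). No well without CD3 chains had more than 1 of the 7 genes, against 7 WT and 11 PD-1-/- members with 2 or more. At most 3 of them were found in a WT member and 5 in a PD-1-/- member. The other 41 members had none of the 7.

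Bcl11b, a transcription factor of T lineage commitment, was the most frequent of these genes. It was found in 9 of 31 WT members, 29% (14.2 to 48), against 2.03% of no-chain wells (0.750 to 4.37), and in 11 of 45 PD-1-/- members, 24.4% (12.9 to 39.5), against 3.53% (1.71 to 6.40). Where present, Bcl11b had a median of 38.3 RPKM in WT and 11.9 in PD-1-/- members, and of 1.27 and 1.82 in no-chain wells. It was the only gene of the list of T lineage genes without the CD3 chains that was called, with log2 ratios of 3.56 and 2.16. Its PD-1-/- ratio was under 2-fold with a pseudocount of 10 (0.58) and as a difference of mean log2(RPKM + 1) (0.78). Of the 22 genes on that list 17 were in the table, and 9 passed the filter on low values. The medians of these 9 log2 ratios were 0.50 on the WT and 0.59 on the PD-1-/- plate. On both plates 6 of the 9 were above 0 and 2 below 0. The genes below 0 were Lef1 (-0.52 and -0.66) and Satb1 (-0.27 and -0.35), all under 2-fold. The share called higher over all genes compared was 1.28%.

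Cd8a and Cd8b1 encode the 2 chains of the CD8 coreceptor, which binds MHC class I. Cd8a was found in 6 WT members at up to 1107 RPKM, 19.4% (7.45 to 37.5), and in 6 PD-1-/- members at up to 844 RPKM, 13.3% (5.05 to 26.8). In no-chain wells Cd8a was found in 1 well per plate, at less than 1 RPKM (0.927 and 0.789). Cd8b1 was found in 3 WT and 6 PD-1-/- members, against 1 and 2 no-chain wells. At least 1 chain of CD8 was found in 7 of 31 WT members, 22.6% (9.59 to 41.1), and in 8 of 45 PD-1-/- members, 17.8% (8.0 to 32.1). Cd4, the coreceptor for MHC class II, was found in 1 member per plate, neither of which had Cd8a or Cd8b1. Neither coreceptor was found in 23 WT and 36 PD-1-/- members.

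Cd5 and Cd6 are related surface receptors of T cells. Cd5 was found in 3 WT members, 9.68% (2.04 to 25.8), and in 1 no-chain well at 1.51 RPKM. On the PD-1-/- plate Cd5 was found in 7 members, 15.6% (6.49 to 29.5), and in 0 no-chain wells, which allows a share of up to 1.06%. Cd6 was found in 4 WT members, 12.9% (3.63 to 29.8), and in 4 no-chain wells, 1.36% (0.371 to 3.44), where it reached 441 RPKM, so that its level did not separate these wells. Of the PD-1-/- wells, 6 members and 0 no-chain wells had Cd6. Themis, needed for T cell selection in the thymus, was listed at 0 in all WT members and found in 1 PD-1-/- member at 42.4 RPKM.

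Of the genes that act downstream of the T cell receptor, Sit1 and Plcg1 were found in larger shares of members than of no-chain wells on both plates. Sit1, a transmembrane adaptor that binds the phosphatase SHP2, was found in 3 WT and 5 PD-1-/- members, at up to 450 and 550 RPKM, and in 1 and 0 no-chain wells. Plcg1, the phospholipase C used by the T cell receptor, was found in 5 WT members, 16.1% (5.45 to 33.7), and in 0 no-chain wells. It was found in 10 PD-1-/- members, 22.2% (11.2 to 37.1), against 2.47% (1.0 to 5.03). Most of the proximal signaling chain did not differ 2-fold on both plates. Of 22 genes on that list, 20 passed the filter on low values. None of the 20 was called higher and 1 was called lower, against 1.28% and 1.72% of all genes compared. Their median log2 ratio was 0.18 on the WT and -0.01 on the PD-1-/- plate. Sit1 and Plcg1 did not pass the filter, so they could not be called. The log2 ratios were 4.67 and 5.51 for Sit1, and 3.75 and 2.86 for Plcg1. Lck, the kinase that phosphorylates ITAMs, was found in 29 of 31 and 43 of 45 members and in 90.5% and 89.4% of no-chain wells. Cd247 (CD3 zeta) was present in 67.7% and 64.4% of members and in 54.2% and 54.4% of no-chain wells, with log2 ratios of 0.42 and -0.08. Lat, the scaffold for the signal of the T cell receptor, was in 54.8% (36 to 72.7) and 64.4% (48.8 to 78.1) of members against 35.3% (29.8 to 41) and 36.4% (30.8 to 42.3), with log2 ratios of 1.36 and 0.89. Its relative Lat2, used by NK, mast and B cells, was the gene called lower, with log2 ratios of -1.54 and -1.14, and without rows A and B its log2 ratio on the PD-1-/- plate was -0.99, and with all wells kept -0.85, both under 2-fold.

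T cell receptor genes themselves were not analysed here. Markers of particular T cell types differed in direction. None of the 8 listed markers of gamma delta T cells that the table held was found in a WT member, and 1 of them, Maf, in 2 PD-1-/- members at up to 2.98 RPKM. Zbtb16 (PLZF), the transcription factor of NKT cells, was in none of the WT members and 2 of the PD-1-/- members. It was in 6 and 7 no-chain wells, and its log2 ratios were -1.17 and -0.92. The other listed markers of NKT cells were not lower. The log2 ratios were 1.84 and 1.597 for Slamf6, which did not pass the filter, and 0.499 and 0.863 for Tcf7, under 2-fold. Those of Cd4, Cd5 and Cd6, also on that list, were above 0 on both plates, and those of Il4 were 0. Foxp3, the factor of regulatory T cells, was found in 0 and 1 members, against 12 and 15 no-chain wells, with medians of 1.5 and 1 reads where present. Il2ra, the alpha chain of the IL-2 receptor, was found in 9 of 31 WT members, 29% (14.2 to 48), against 6.44% (3.92 to 9.88), and in 4 of 45 PD-1-/- members, 8.89% (2.48 to 21.2), against 6.01% (3.54 to 9.44).

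Members had most of the markers by which NK cells are recognized, but lacked some of them more often than no-chain wells did. Of 8 NK-like genes (Ncr1, Klrb1c, Klrk1, Klre1, Eomes, Tyrobp, Fcer1g and Gzma), members had a median of 6 on both plates, with a range of 3 to 8, and no-chain wells a median of 8. At least 6 were found in 18 of 31 WT members, 58.1% (39.1 to 75.5), and in 33 of 45 PD-1-/- members, 73.3% (58.1 to 85.4), against 96.9% (94.3 to 98.6) and 97.2% (94.5 to 98.8) of no-chain wells. Only 1 WT and 6 PD-1-/- members had all 8, against 56.9% and 50.5% of no-chain wells. Every one of the 76 members had Fcer1g. Klrb1c (NK1.1, the surface marker of the sort) was found in 25 WT members, 80.6% (62.5 to 92.5), against 98.3% (96.1 to 99.4), and in 42 PD-1-/- members, 93.3% (81.7 to 98.6), against 97.2% (94.5 to 98.8). Klrk1, which encodes the activating receptor NKG2D, was found in 26 and 43 members.

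All 8 NK-like genes had log2 ratios below 0 on both plates, with medians of -1.12 and -0.68. The median over all genes compared was -0.02 on each plate. Ncr1, Eomes and Tyrobp were called lower, against 1.72% of all genes compared. Ncr1 (NKp46), an activating receptor that signals through CD3 zeta and FcεRIγ, was found in 16 of 31 WT members, 51.6% (33.1 to 69.8), against 94.6% (91.3 to 96.9), and in 27 of 45 PD-1-/- members, 60% (44.3 to 74.3), against 96.8% (94 to 98.5). Where it was present its median was 524 and 628 RPKM in members, and 1269 and 1425 in no-chain wells. Tyrobp (DAP12), the adaptor of activating Ly49 and other receptors, was absent from 6 WT and 15 PD-1-/- members, and was found in every WT no-chain well and in 98.2% of those on the PD-1-/- plate. Its log2 ratios of -1.20 and -1.05 became -1.05 and -0.95 without rows A and B, the second under 2-fold, and the WT ratio was -0.98 in wells with 1500 to 3000 genes. Eomes, a transcription factor of NK cell maturation, was found in 29% (14.2 to 48) and 28.9% (16.4 to 44.3) of members against 64.1% (58.3 to 69.5) and 58.7% (52.7 to 64.5).

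Of the receptors of the natural killer gene complex, members had some and mostly lacked others. Klrb1b (NKR-P1B), an inhibitory receptor for a Clr ligand, was found in 4 of 31 WT members, 12.9% (3.63 to 29.8), against 59.7% (53.8 to 65.3), and in 10 of 45 PD-1-/- members, 22.2% (11.2 to 37.1), against 71.4% (65.7 to 76.6). Its log2 ratios were -5.42 and -3.45. Klri2, which pairs with KLRE1, was found in 4 and 10 members against 63.1% (57.3 to 68.6) and 63.6% (57.7 to 69.2), with log2 ratios of -3.17 and -2.04. In contrast, Klrd1 (CD94) was found in 30 of 31 and 45 of 45 members. Of 18 NK receptor genes, 16 passed the filter, with medians of -0.90 and -0.40. None of them was called higher and 4 were called lower, against 1.28% and 1.72% of all genes compared. Beside Ncr1, Klrb1b and Klri2 this was Fcgr3 (CD16), with log2 ratios of -1.40 and -1.77, of which the first was -0.55 with all wells kept.

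The Ly49 genes (Klra), receptors for MHC class I, include near-identical copies, so that reads may have been split or mixed between them and each value is uncertain. Of 13 listed Ly49 genes 7 passed the filter, with medians of 0.0039 and 0.37. Klra1 and Klra6 were called higher and none lower, against 1.28% and 1.72% of all genes compared. Klra6 was present in 25.8% (11.9 to 44.6) and 22.2% (11.2 to 37.1) of members against 1.69% (0.553 to 3.91) and 2.47% (1.0 to 5.03), but with medians of 3 and 4.5 reads where present. Klra1 was found in 29% (14.2 to 48) and 44.4% (29.6 to 60) of members against 16.3% (12.2 to 21) and 13.4% (9.68 to 18). Klra8 (Ly49H) was listed at 0 in all 76 members, which allows a share of up to 9.68% in WT and 6.67% in PD-1-/- members, and was found in 13.2% (9.57 to 17.6) and 8.83% (5.80 to 12.8) of no-chain wells. Klra18 and Klra21, which are not on that list, were among the 10 genes with the lowest ratios, found in 1 WT member each and in 3 and 2 PD-1-/- members, against 48.5% and 39.3% of WT and 32.5% and 31.8% of PD-1-/- no-chain wells.

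**Figure D4:**
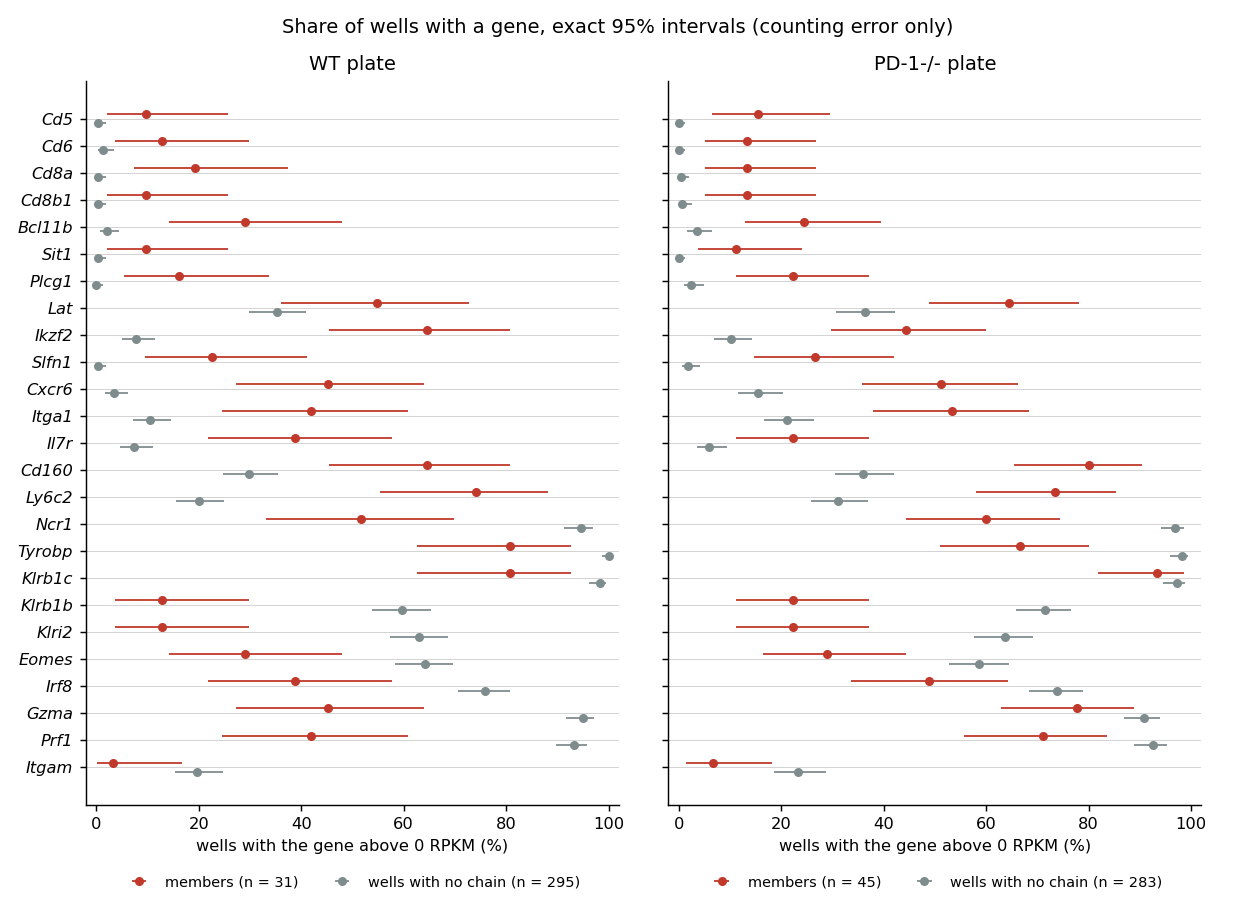
Share of wells with a gene above 0 RPKM on each plate, in members (red) and in kept wells with no CD3 chain (gray), with exact 95% intervals that cover counting error only. T lineage genes such as Cd5 and Cd8a lie at or near 0 in no-chain wells, and Ncr1, Klrb1b, Klri2, Eomes and Irf8 lie lower in members on both plates.

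The 10 genes with the highest ratios, ranked by the plate with the smaller ratio, were Slfn1, Ikzf2, Amica1, Klra6, Adam19, Tnfsf8, Klk8, Bcl11b, Spp1 and Cxcr6. Slfn1, a member of the Schlafen family linked to T cell quiescence, was found in 7 of 31 WT members, 22.6% (9.59 to 41.1), against 1 no-chain well. On the PD-1-/- plate it was found in 12 of 45 members, 26.7% (14.6 to 41.9), against 5 no-chain wells, with log2 ratios of 4.93 and 3.73. Ikzf2 (Helios), a zinc finger transcription factor of the Ikaros family, was found in 20 of 31 WT members, 64.5% (45.4 to 80.8), against 7.80% (5.01 to 11.5). It was also found in 20 of 45 PD-1-/- members, 44.4% (29.6 to 60), against 10.2% (6.97 to 14.4), with log2 ratios of 4.59 and 3.18. Its median where present was 43.7 and 42.3 RPKM in members and 8.46 and 4.17 RPKM in no-chain wells. Amica1 (JAML), an adhesion molecule, was found in 54.8% (36 to 72.7) and 48.9% (33.7 to 64.2) of members against 7.46% (4.73 to 11.1) and 9.54% (6.38 to 13.6).

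Tnfsf8 (CD30 ligand) was found in 29% (14.2 to 48) and 22.2% (11.2 to 37.1) of members against 13.6% (9.87 to 18) and 14.1% (10.3 to 18.7), so that the difference in its mean lay mostly in the level, which reached 3180 RPKM in 1 PD-1-/- member. Its PD-1-/- log2 ratio of 2.41 was 0.76 in members with all 3 chains and 0.88 as a difference of mean log2(RPKM + 1), both under 2-fold. Klk8, a secreted serine protease, was found in 41.9% (24.5 to 60.9) and 37.8% (23.8 to 53.5) of members against 5.76% (3.39 to 9.07) and 10.2% (6.97 to 14.4). Adam19, a membrane metalloprotease, was found in 19.4% (7.45 to 37.5) and 26.7% (14.6 to 41.9) against 1.69% (0.553 to 3.91) and 3.53% (1.71 to 6.40), and its WT difference of mean log2(RPKM + 1) was 0.82, under 2-fold. Spp1 (osteopontin) was found about as often in members as in other wells, in 16.1% and 28.9% against 15.6% and 26.9%. Its ratio rested on single wells, with up to 57992 RPKM in 1 WT member and 63118 RPKM in 1 PD-1-/- member, and its WT log2 ratio of 2.11 became -2.45 without wells under 100000 reads.

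Of 11 listed genes linked to tissue residence that passed the filter, 7 were called higher and none lower. Over all genes compared, 1.28% were called higher and 1.72% lower. The medians of the 11 log2 ratios were 1.76 and 1.41, against -0.02 over all genes on both plates. The genes called were Cxcr6, Itga1, Il7r, Il21r, Amica1, Ly6a and Cxcr3. The list was chosen with earlier results of these wells known and is not independent evidence of its direction. Cxcr6, the receptor for the membrane-bound chemokine CXCL16, was found in 14 of 31 WT members, 45.2% (27.3 to 64), against 3.39% (1.64 to 6.15), and in 23 of 45 PD-1-/- members, 51.1% (35.8 to 66.3), against 15.5% (11.5 to 20.3). Itga1 (CD49a), a collagen-binding integrin, was found in 41.9% (24.5 to 60.9) and 53.3% (37.9 to 68.3) of members against 10.5% (7.25 to 14.6) and 21.2% (16.6 to 26.4). Il7r, the IL-7 receptor of T cells and innate lymphoid cells, was found in 38.7% (21.9 to 57.8) and 22.2% (11.2 to 37.1) against 7.46% (4.73 to 11.1) and 6.01% (3.54 to 9.44). Il21r was found in 25.8% (11.9 to 44.6) and 40% (25.7 to 55.7) against 11.5% (8.12 to 15.7) and 14.8% (10.9 to 19.5). Cxcr3, a chemokine receptor of type 1 responses, was found in 22 of 31 and 37 of 45 members against 42.7% and 44.5%, and its WT log2 ratio was 0.995, just under 2-fold, without wells below 100000 reads. The WT log2 ratio of Ly6a (Sca-1), 1.76, became -0.23 without rows A and B and 0.45 without wells under 100000 reads.

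Of the circulation and egress genes, Ly6c2 was called higher and Itgam and S1pr5 lower, out of 7 that passed the filter. The medians of these 7 were 0.69 on the WT and -1.21 on the PD-1-/- plate, against -0.02 over all genes, of which 1.28% were called higher and 1.72% lower. Ly6c2, which has near-identical copies, was found in 74.2% (55.4 to 88.1) and 73.3% (58.1 to 85.4) of members against 20% (15.6 to 25) and 31.1% (25.7 to 36.8). Itgam (CD11b), which mature NK cells gain, was found in 1 of 31 and 3 of 45 members against 19.7% (15.3 to 24.7) and 23.3% (18.5 to 28.7). S1pr5, the receptor by which NK cells leave bone marrow and lymph nodes, was found in 9.68% (2.04 to 25.8) and 11.1% (3.71 to 24.1) of members against 23.4% (18.7 to 28.6) and 27.9% (22.8 to 33.5). Cd160, a receptor for HVEM and the 1 checkpoint receptor called out of 6 that passed the filter (medians -0.10 and 0.51), was found in 64.5% (45.4 to 80.8) and 80% (65.4 to 90.4) against 29.8% (24.7 to 35.4) and 36% (30.4 to 41.9).

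The 10 genes with the lowest ratios, ranked by the plate nearer to 0, were Sepn1, Klrb1b, Eef2k, Itgam, Klra21, Car2, Gcnt1, Trim36, Klra18 and Ormdl3. Car2, a carbonic anhydrase, was the most frequent of them in no-chain wells, where it was found in 69.2% (63.5 to 74.4) and 61.5% (55.5 to 67.2) of wells against 16.1% (5.45 to 33.7) and 15.6% (6.49 to 29.5) of members. Sepn1, which encodes selenoprotein N, was found in 1 of 31 and 4 of 45 members, against 24.1% (19.3 to 29.4) and 23% (18.2 to 28.3). Eef2k, the kinase of elongation factor 2, was listed at 0 in the 31 WT members, which allows a share of up to 9.68%, and was found in 3 PD-1-/- members, against 21.7% (17.1 to 26.8) and 24.7% (19.8 to 30.2). Gcnt1, which builds core 2 O-glycans, was found in 2 members per plate against 28.1% (23.1 to 33.6) and 23.7% (18.8 to 29.1). Ormdl3, a regulator of sphingolipid synthesis, was found in 1 and 4 members against 22.7% (18.1 to 27.9) and 22.3% (17.6 to 27.6), and its PD-1-/- difference of mean log2(RPKM + 1) was -0.98, under 2-fold. Trim36, a ubiquitin ligase, was found in 9.68% and 15.6% of members against 11.5% and 13.4%, so that the difference in its mean lay in the level and not in the share of wells. With a pseudocount of 10 the ratios of Trim36 were -0.64 and -0.85, and as differences of mean log2(RPKM + 1) they were -0.30 and -0.25, all under 2-fold.

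Among transcription factors of NK cells and innate lymphoid cells, 13 passed the filter, with medians of -0.23 and -0.20. Of these, 2 were called higher (Ikzf2 and Zeb2) and 3 lower (Eomes, Irf8 and Prdm1), against 1.28% and 1.72% of all genes compared. Irf8, needed for NK cell responses to virus, was found in 38.7% (21.9 to 57.8) and 48.9% (33.7 to 64.2) of members against 75.9% (70.6 to 80.7) and 73.9% (68.3 to 78.9), with log2 ratios of -2.75 and -1.41. Tbx21 (T-bet), shared by NK cells and type 1 T cells, was found in 58.1% (39.1 to 75.5) and 68.9% (53.4 to 81.8) against 66.1% (60.4 to 71.5) and 72.1% (66.5 to 77.2). Zeb2 was found in 12.9% and 13.3% of members and 13.9% and 12.7% of no-chain wells, and Prdm1 in 16.1% and 6.67% against 16.9% and 18.7%. Zeb2 was past 2-fold in 3 of 10 settings tried and Prdm1 in 4 of 11.

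Of 9 cytotoxic effector genes that passed the filter, Gzmc and Prf1 were called lower and none higher, and the medians were -0.57 and -0.17. The shares over all genes compared were 1.72% lower and 1.28% higher. Prf1 (perforin) was found in 13 of 31 WT members, 41.9% (24.5 to 60.9), against 93.2% (89.7 to 95.8), and in 32 of 45 PD-1-/- members, 71.1% (55.7 to 83.6), against 92.6% (88.9 to 95.3), with log2 ratios of -2.28 and -1.15. Gzma, a granzyme with tryptase activity, was found in 45.2% (27.3 to 64) and 77.8% (62.9 to 88.8) of members against 94.9% (91.8 to 97.1) and 90.8% (86.8 to 93.9), and its PD-1-/- log2 ratio of -0.93 was under 2-fold. Where present, Gzma had a median of 1134 and 1393 RPKM in members and of 8222 and 9481 RPKM in no-chain wells. Gzmc was found in 32.3% and 15.6% of members against 31.9% and 24.7%, and the difference in its mean lay in the few highest wells, up to 32194 RPKM in a WT no-chain well. Its WT ratio was under 2-fold with all wells kept (-0.91) and as a difference of mean log2(RPKM + 1) (-0.046). Of 6 cytokine and chemokine genes that passed the filter none was called, with medians of 0.59 and -0.23.

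The members differed among themselves, as joint counts of genes show. Of 15 WT members without Ncr1, 11 had Cxcr6, and of 16 with Ncr1, 3 had it. On the PD-1-/- plate Cxcr6 was found in 10 of 18 members without Ncr1 and in 13 of 27 with it, so that this contrast was seen on 1 plate only, and the difference between plates was not tested. Cd8a was present in 4 of 15 members without Ncr1 on the WT plate and 5 of 18 on the PD-1-/- plate, and in 2 of 16 and 1 of 27 with it. Cd8b1 was present in 2 of 15 members without Ncr1 on the WT plate and 6 of 18 on the PD-1-/- plate, and in 1 of 16 and 0 of 27 with it. No other T-like gene followed the CD8 chains on both plates, and Cd5 and Bcl11b did so on the PD-1-/- plate only. Cd5 was found in 0 of 15 WT members without Ncr1 and 3 of 16 with it, and in 4 of 18 and 3 of 27 on the PD-1-/- plate. Bcl11b was found in 3 of 15 and 6 of 16 on the WT plate and in 7 of 18 and 4 of 27 on the PD-1-/- plate, and Cd6 in 2 of 15 and 2 of 16, and in 2 of 18 and 4 of 27. Both members with Cd4 had Ncr1, and the 1 with Themis did not. Klrb1b was present in 0 of 15 members without Ncr1 on the WT plate and 2 of 18 on the PD-1-/- plate, and in 4 of 16 and 8 of 27 with it. Both Cd8a and Cd8b1 were found in 2 WT and 4 PD-1-/- members. The median number of NK-like genes was 6 in the 41 members that had none of the 7, 6 in the 17 with 1, 5 in the 11 with 2, 5.5 in the 4 with 3, 6 in the 2 with 4, and 4 in the 1 with 5.

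Rows A and B of the WT plate held members of a different make-up. Cxcr6 was found in 10 of 13 WT members in those rows and in 4 of 18 in the others, and Gzma in 10 of 13 and 4 of 18. Ikzf2 was found in 11 of 13 and 9 of 18. Eomes was found in 0 of 13 and 9 of 18, and Ncr1 in 4 of 13 and 12 of 18. Itga1 was found in 8 of 13 and 5 of 18, and Cd8a in 4 of 13 and 2 of 18. In the other direction, Il7r was found in 3 of 13 and 9 of 18, Bcl11b in 2 of 13 and 7 of 18, Klri2 in 0 of 13 and 4 of 18, and Cd5 in 0 of 13 and 3 of 18. Prf1 was found in 5 of 13 and 8 of 18. On the PD-1-/- plate Cxcr6 was found in 3 of 6 members in rows A and B and in 20 of 39 in the others. What set the rows of the WT plate apart was not tested.

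**Figure D5:**
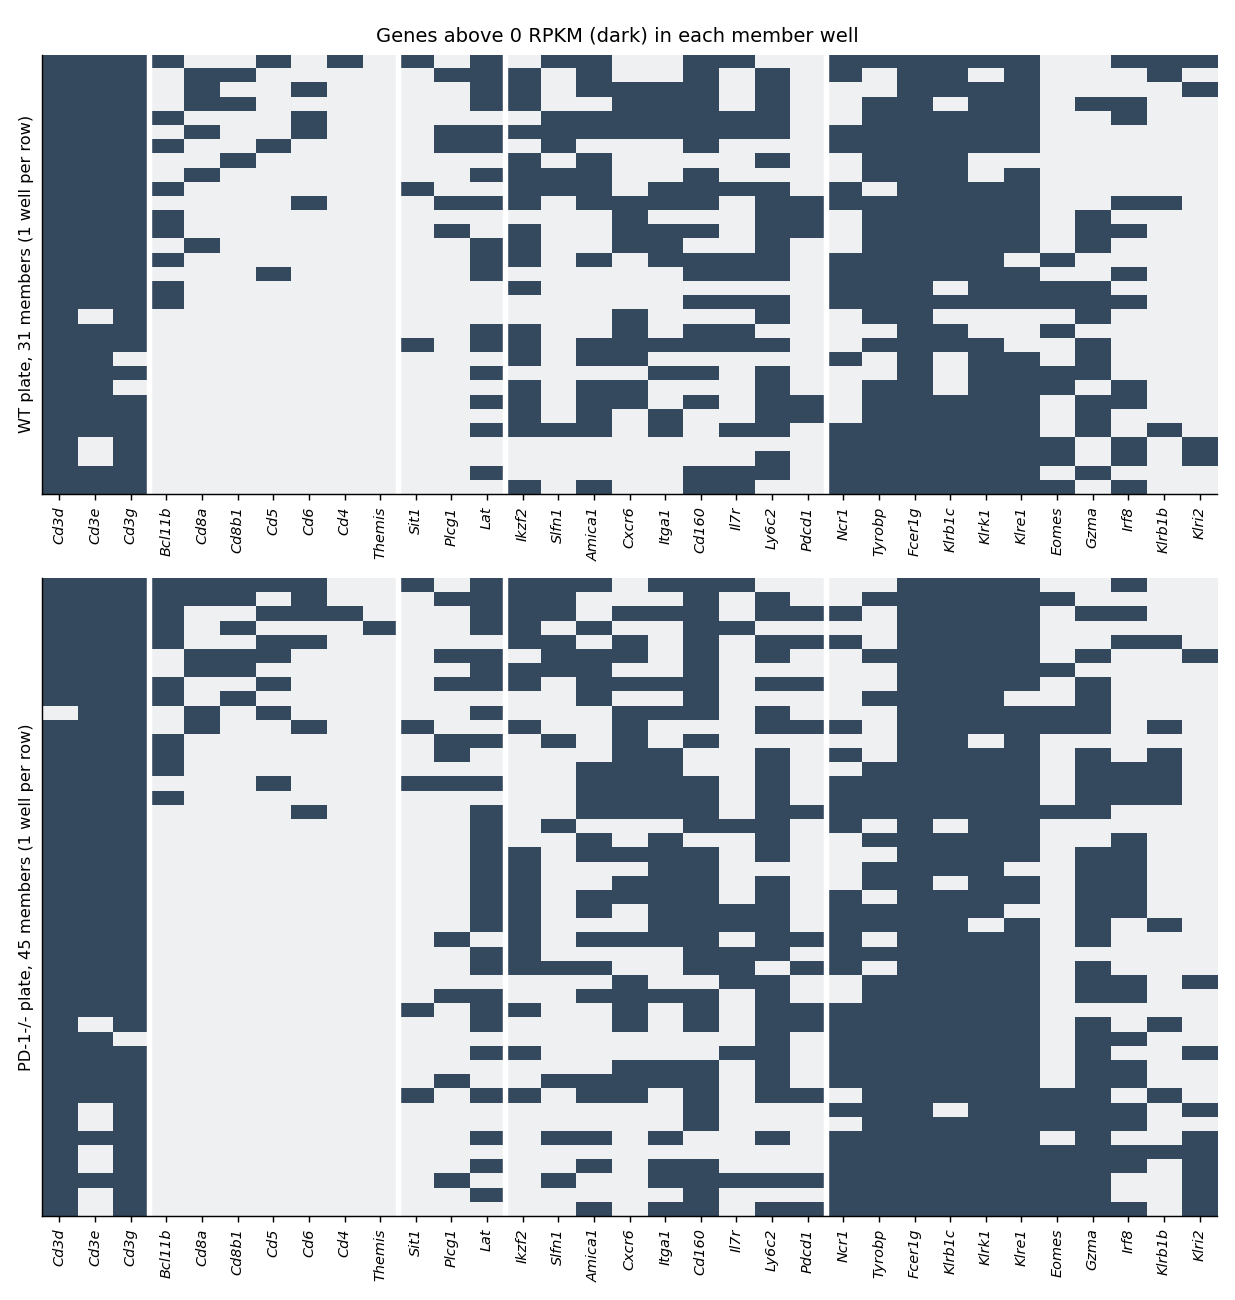
Presence above 0 RPKM (dark) of the 3 CD3 chains, 7 T-like genes, 3 signaling genes, 9 other genes and 11 NK genes in each of the 31 WT and 45 PD-1-/- members, 1 well per row, ordered by the number of T-like genes. Fcer1g is dark in every row, and Cd4 and Themis are dark in at most 1 row per plate.

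Pdcd1, the gene deleted in the PD-1-/- mice, was found on both plates. RPKM per gene does not show which exons were read, so that Pdcd1 does not check the labels of the plates. It was found in 5 of 31 WT members, 16.1% (5.45 to 33.7), against 1 no-chain well, 0.339% (0.00858 to 1.87), and in 12 of 45 PD-1-/- members, 26.7% (14.6 to 41.9), against 30 no-chain wells, 10.6% (7.27 to 14.8). Of 1-chain wells, 3 of 34 WT and 5 of 38 PD-1-/- wells had it. All 5 WT members with Pdcd1 lay in rows A and B, and the other rows held 0 of 18, which allows a share of up to 16.7%. Recovered Pdcd1 reads reached 638 in those WT members, and had a median of 75 in PD-1-/- members. Cxcr6 was found in 4 of the 5 WT and 9 of the 12 PD-1-/- members with Pdcd1. Among members without Pdcd1, 10 WT members had Cxcr6 and 16 did not, and 14 PD-1-/- members had it and 19 did not. In rows A and B of the WT plate, where all 5 WT members with Pdcd1 lay, 10 of 13 members had Cxcr6. Whether the 2 genes go together was not tested.

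For the genes given here other than Pdcd1, wells with exactly 1 chain had shares nearer to no-chain wells than to members. Pdcd1 on the WT plate was nearer to members, in 8.82% of wells with 1 chain, 16.1% of members and 0.339% of no-chain wells. Ncr1 was found in 94.1% of the 34 WT and 92.1% of the 38 PD-1-/- wells with 1 chain, Eomes in 73.5% and 60.5%, and Klri2 in 70.6% and 60.5%. Ikzf2 was found in 5.88% and 13.2% of them, and Slfn1 in 0 and 1 well. At least 1 of the 7 T-like genes was found in 3 and 4 of these wells, 8.82% (1.86 to 23.7) and 10.5% (2.94 to 24.8), and none had 2.

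Wells with Cxcr6 and no CD3 chain, 10 on the WT and 44 on the PD-1-/- plate, also had several of these genes. Itga1 was found in 7 of 10 and 22 of 44 of them, Il7r in 6 and 10, and Ly6c2 in 6 and 26. Eomes was found in 3 of 10 and 12 of 44. Ncr1 was found in 8 of 10 and 43 of 44, and Klrb1b in 8 of 10 and 40 of 44. Slfn1 was found in none of them, and Ikzf2 in 3 of 10 and 5 of 44. Cxcr6 chose these wells, and the difference from members was not tested.

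Markers of neutrophils, B cells and fibrosarcoma were rare in members, and those of myeloid cells about as frequent as in no-chain wells. At least 1 of 5 myeloid-like genes was present in 5 WT members and 3 PD-1-/- members, 16.1% (5.45 to 33.7) and 6.67% (1.40 to 18.3), against 12.5% (8.99 to 16.9) and 6.71% (4.09 to 10.3), with a summed level of 0 to 663 and 0 to 280 RPKM in members. C1qa and Emr1 were at 0 in all members. Neutrophil-like genes were found in 1 member per plate, and B-like genes in 0 WT and 2 PD-1-/- members, up to 1338 RPKM. Fibrosarcoma-like genes were found in 2 WT members, up to 1516 RPKM, and in 0 PD-1-/- members. The part of these wells in the results was not tested. At least 1 of 5 cycling-like genes was found in 25.8% (11.9 to 44.6) and 35.6% (21.9 to 51.2) of members against 17.3% (13.2 to 22.1) and 23.7% (18.8 to 29.1), and regulatory T-like genes in 32.3% (16.7 to 51.4) and 24.4% (12.9 to 39.5) against 13.2% (9.57 to 17.6) and 19.4% (15 to 24.5). By these markers the members were given no cell type name: 41 of the 76 had none of the further T-like genes, and at least 3 NK-like genes were found in each.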

How the data were processed

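Single NK cells were sorted into 384 wells per genotype, and SMART-SEQ2 libraries were sequenced, 1 per well. The values the authors deposited are RPKM, for 24490 gene entries in each well. Of the entries 771 share a symbol with another entry and were kept apart. The submitters' processing notes name TopHat, Cufflinks, mm9 and mm10 without roles; versions, settings and annotation are not given in the sources used here. RPKM carries no depth of its own, but its equal steps per gene gave whole reads for 9513 genes: 99.8% of 659716 values under 60 reads came out whole (tolerance 0.0003, relative). These reads served for depth, for thinning and to describe the level of some genes. No count test was run on them, since wells of 1 pool on 1 plate are not replicates.

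The members were selected on Cd3d, Cd3e and Cd3g above 0 RPKM. The members and gene lists were chosen with earlier results of these data known. Log2 ratios are of mean RPKM with a pseudocount of 1, and 2-fold on both plates was the threshold. Entries were compared if the average share of wells with the gene was 10% or more on both plates. Named are the listed genes, Pdcd1, and the 10 highest and 10 lowest ratios past the threshold, ranked by the plate nearer to 0. The scripts were tested on simulated data. Python 3.11.15, numpy 2.4.6, pandas 2.3.3, scipy 1.17.1 and matplotlib 3.10.9 were used. Alternatives changed the wells, rows, chains, pseudocount, filter, summary, scaling, depth and fold. The filter on apoptotic genes named in the study was not used here, since no list is given.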

Additional observations from a re-analysis of the deposited data

Results flagged for a closer look

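For 3 of the listed genes that passed the filter on low values, the members differed from no-chain wells by 2-fold or more in opposite directions on the 2 plates, and the difference between the plates was not tested. The log2 ratio of Klf3, a Krüppel-like factor, was 1.35 on the WT plate and -1.87 on the PD-1-/- plate, and Klf3 was present in 17 of 31 members on the WT plate and 6 of 45 on the PD-1-/- plate against 22.7% and 25.8% of no-chain wells. The log2 ratio of Tox, a factor of NK and T cell development, was -1.24 on the WT and 1.36 on the PD-1-/- plate, with Tox found in 4 of 31 and 17 of 45 members. The log2 ratio of Tnf was -2.45 on the WT and 1.11 on the PD-1-/- plate, with Tnf found in 5 of 31 and 9 of 45 members, with a highest WT value of 24.4 RPKM. Genotype and plate cannot be told apart in these values.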

How the results depend on the processing

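Members, called genes and markers were recomputed with other wells, chains and scales. Counting wells with any 1 chain gave member shares of 18.1% (WT) and 22.7% (PD-1-/-). The WT share was 5.59% without rows A and B, 12.9% in the upper rows (A to H) and 4.40% in the lower ones (I to P), and Pdcd1 was found in 0% of WT members without rows A and B. Against the 79 genes called higher and the 1.72% called lower, a pseudocount of 10 gave 40 and 35, no filter on low values about 3.4e2 and 645, an average share of 20% 34 and 32, and 4-fold 10 and 11, with fewer or more genes compared under the filters. The mean of log2(RPKM + 1) gave 70 higher and 55 lower, of which 34 and 32 were also called in the main comparison. Without rows A and B, 59 of the genes called higher and 75 of those called lower were called again. Counting a gene from 10 RPKM gave 6 or more NK-like genes in 35.5% of WT members. For 6 or more of the 7 NK-like genes with recovered reads, thinning to 100000 reads moved the share from 25.9% to 18.5% (WT) and from 40.9% to 27.3% (PD-1-/-), leaving out 4 and 1 members. Of 40 named genes, 26 were past 2-fold in every setting run for them. Signs were reversed for Ly6a (WT -0.23 without rows A and B) and Spp1 (WT -1.45 with all 3 chains, -1.28 without rows A and B, -2.53 with 1500 to 3000 genes, -2.45 without wells under 100000 reads, a setting chosen after seeing the data, and PD-1-/- -3.89 with all 3 chains). The causes were not tested. No paired analysis was possible because the numbers that the plates share name wells of different pools and no result comes from a test.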
